A study of Mus musculus with 3 samples.

Results

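The axon guidance genes of sorted mouse leptomeningeal cells were examined in 3 RNA sequencing libraries. Members were all rows of the count table whose symbol belongs to the semaphorins, plexins, neuropilins, ephrins, Eph receptors, Slits, Robos, netrins and Unc5 receptors, with Dcc added, and were chosen by name only. They came to 68 genes of 46983 in the table, 34 coding for ligands and 34 for receptors. All libraries formed 1 group: the pia-enriched fraction of vehicle-treated mice, obtained by dissecting and dissociating the leptomeninges and sorting the cells. The labels do not say what the vehicle was given for, which markers the sort used, the strain, sex or age of the mice, or whether mice were pooled. With 1 group no treatment could be compared. The p-values of single genes measure the spread between these 3 samples, which may be technical. The p-value for the ligand and receptor sums instead sets their mean difference within libraries against the same differences under changes of sign.

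Guidance cues steer growing axons and migrating cells by attraction or repulsion. Semaphorins signal through plexins, and the secreted class 3 semaphorins do so mostly with neuropilins as the binding partner. Ephrins sit in the membrane and act on Eph receptor tyrosine kinases of neighbouring cells, with the ephrin-A proteins held by a lipid anchor and the ephrin-B proteins spanning the membrane. Slits act on Robo receptors, and netrins, which are related to laminins, on Dcc and Unc5 receptors. The same molecules also act outside the nervous system, for example in blood vessels, and the pia is where the end feet of glia meet the basement membrane of the brain surface.

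Gene counts per library lay between 21002860 and 28704952. Levels below are CPM, counts divided by sequencing depth in the usual unit, on scaled library sizes, divided by the length of all annotated exons of the gene in kilobases wherever genes are compared with each other. The fibroblast marker list (6 genes, among them Col1a1 and Dcn) summed to 23467, 29100 and 25292 CPM in libraries 1, 2 and 3, and the 7 leptomeningeal fibroblast markers to 1635, 1679 and 1725 CPM. Single genes of these lists moved more than the sums, though 0 were called variable. Ptgds was at 647, 239 and 518 CPM, Slc47a1 at 844, 1239 and 1054, and Col3a1 at 2154, 4316 and 3907. Libraries differed more in the markers of some other cells. The 7 macrophage and microglia markers summed to 7.78, 184 and 514 CPM. All 6 of them that passed the filter on low counts were called variable, against 0.437% of all genes tested, and Aif1 did not pass. The 5 choroid plexus epithelium markers summed to 69.4, 1733 and 2681 CPM (2 of 5 called). No marker of these lists was at or under 3 counts in every library. In a bulk sample, fewer cells of a type and less RNA per cell cannot be told apart. Library 1 also stood apart in base composition, which is taken up with the variation between libraries.

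Most of the guidance genes were detected. Of the 68 members, 60 passed the filter on low counts, 32 of 34 ligands and 28 of 34 receptors, against 14409 of all 46983 genes. A mean of at least 1 CPM was reached by 59 members, of at least 10 CPM by 38, and of at least 100 CPM by 7. The shares of all genes at these levels were not worked out. The median log2(CPM + 1) was 4.11 over the 60 members that passed the filter and 4.18 over the 14409 genes that passed. It was 3.90 over all 68 members and 0.0237 over all genes. Per kilobase, 20 of the 68 lay above the median of the genes that passed the filter and 2, Nrp1 and Efna1, above its percentile 90. The 68 include the 8 members that did not pass. Their median exon length was 6.85 kilobases, against 4.295 over the genes that passed, and the part of length in this count was not tested. A few members were far above the rest: the 5 highest, Nrp1, Efna1, Ephb6, Plxnb2 and Efnb1, held 48.4% of the summed level of all members.

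**Figure D1:**
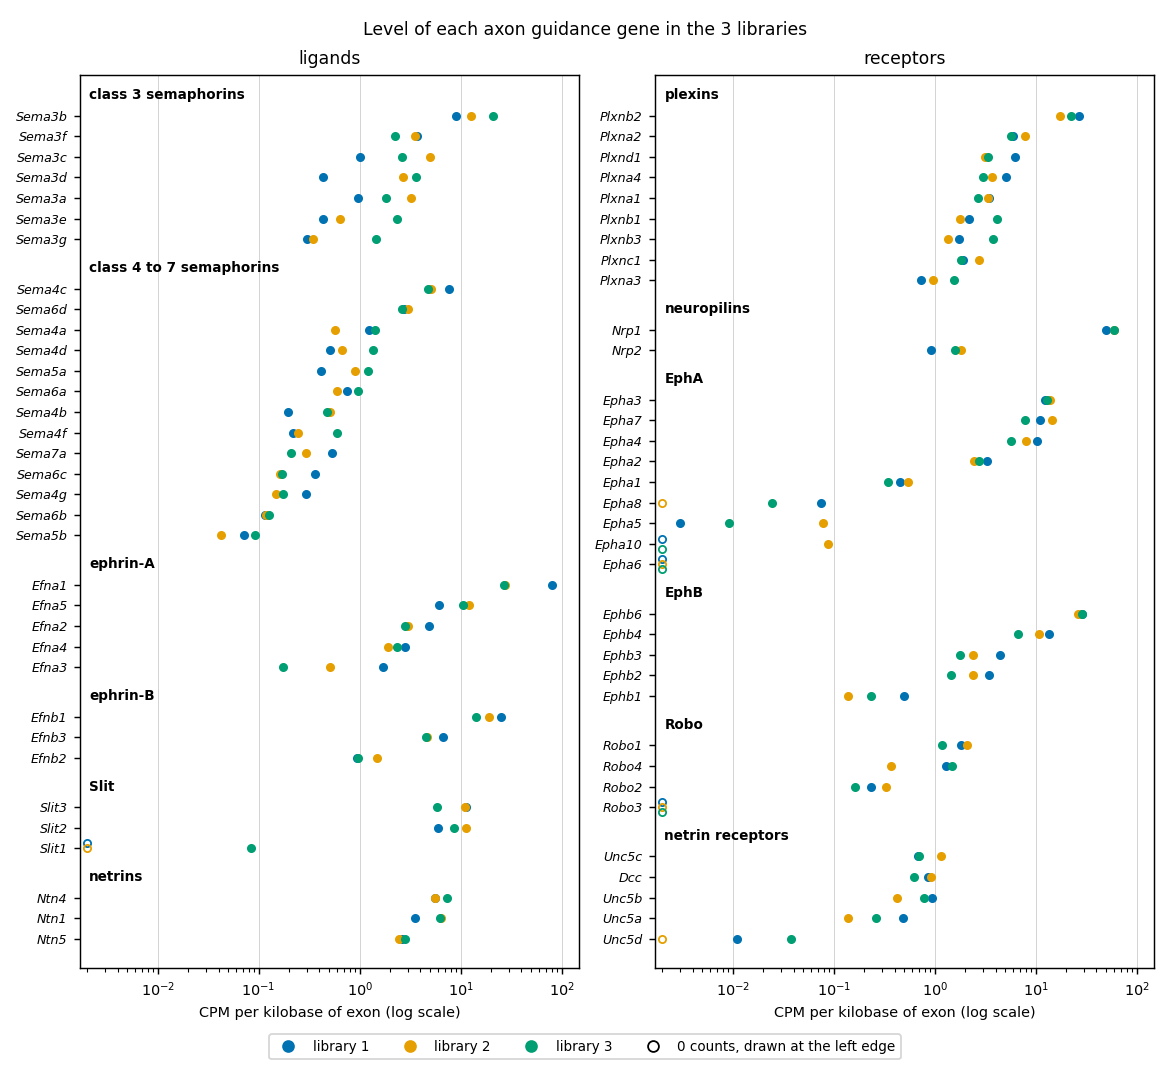
CPM per kilobase of exon (log scale) of the 34 ligands (left) and 34 receptors (right) in each library, grouped by family and ordered by mean. Each point is 1 library, and open points at the left edge are libraries with 0 counts; Nrp1 lies at 50.3 to 59.6, and Robo3 and Epha6 have no count in any library.

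The 8 members that did not pass the filter were Sema5b, Slit1, Epha5, Epha6, Epha8, Epha10, Robo3 and Unc5d. Robo3, which acts in axons that cross the midline, and Epha6 had no count in any library. A count of 0 allows up to 3 counts, or 0.152, 0.101 and 0.116 CPM in libraries 1, 2 and 3 (counting error only). Epha5 had 1, 39 and 4 counts and Epha10 0, 19 and 0 in libraries 1, 2 and 3, so both were found mostly in library 2. Slit1 had 13 counts in library 3 and 0 in the others. Each of these 3 rested on 1 library.

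Among class 3 semaphorins, Sema3b led. Sema3b (ENSMUSG00000057969, chromosome 9, 107597674 to 107609229), a ligand that signals through neuropilins, was at 9.06, 12.8 and 20.8 CPM per kilobase in libraries 1, 2 and 3 (14.2 ± 6.02, SD, n = 3). It took 54.0% ± 7.62 of the summed level of the 7 class 3 genes and was above the next, Sema3f, by 2.45-fold, 3.64-fold and 9.34-fold in the 3 libraries. Sema3f, which binds Nrp2, was at 3.69, 3.52 and 2.23 CPM per kilobase, and Sema3c, known from the cardiac outflow tract, at 1.01, 5.01 and 2.60. The lowest value of Sema3b was above the highest of both, whereas the ranges of Sema3f and Sema3c overlapped. Sema3d (2.26 ± 1.65), Sema3a (2.00 ± 1.12), Sema3e (1.13 ± 1.04) and Sema3g (0.700 ± 0.652 CPM per kilobase, SD, n = 3) followed, each overlapping its neighbour in the order. Sema3a is the classic growth cone collapsing factor, and Sema3e can bind Plxnd1 without a neuropilin.

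The membrane-bound semaphorins of classes 4 to 7 were lower. Sema4c (ENSMUSG00000026121, chromosome 1, 36548639 to 36558349), a ligand of Plxnb2, was at 7.71, 5.08 and 4.72 CPM per kilobase in libraries 1, 2 and 3. Sema6d, a ligand of Plxna1, was at 2.78, 3.04 and 2.66. These 2 stood apart, since the ranges of Sema4c, Sema6d and the gene after them did not overlap. The next was Sema4a at 1.23, 0.572 and 1.41 CPM per kilobase, and its range overlapped that of Sema4d, the ligand of Plxnb1 (0.846 ± 0.445, SD, n = 3). The other 9, Sema5b included, had means between 0.0689 for Sema5b and 0.844 for Sema5a. Sema7a, which is lipid-anchored and binds Plxnc1 and integrins, was at 0.347 ± 0.169. Without division by length Sema6d (29.4, 32.1 and 28.0 CPM) came above Sema4c (35.4, 23.3 and 21.7 CPM) in the mean.

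All 9 plexins passed the filter, and Plxnb2 led them. Plxnb2 (ENSMUSG00000036606, chromosome 15, 89155549 to 89180788) was at 27.0, 17.5 and 22.2 CPM per kilobase in libraries 1, 2 and 3, which is 45.7% ± 4.32 of the plexin sum (SD, n = 3). It was above Plxna2 (5.91, 7.91 and 5.66) by 4.58-fold, 2.21-fold and 3.93-fold. Plxnd1, a plexin of blood vessels and receptor of Sema3e, followed at 6.20, 3.12 and 3.36. The range of Plxnb2 was clear of the others, while those of Plxna2 and Plxnd1 overlapped. Plxna4 (3.94 ± 1.08), Plxna1 (3.15 ± 0.418), Plxnb1 (2.71 ± 1.26) and Plxnb3 (2.29 ± 1.31 CPM per kilobase, SD, n = 3) each overlapped the next. Plxnc1 was at 2.15 ± 0.505, and Plxna3 lay below its range at 1.08 ± 0.422.

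Of the neuropilins, Nrp1 far exceeded Nrp2. Nrp1 (ENSMUSG00000025810, chromosome 8, 128358604 to 128503363), a receptor of class 3 semaphorins that also binds VEGF, measured 492 CPM in library 1 and 583 CPM in libraries 2 and 3, or 50.3, 59.6 and 59.5 CPM per kilobase. Nrp2 (chromosome 1, 62703285 to 62818695), the preferred partner of Sema3f, was at 0.917, 1.82 and 1.59 CPM per kilobase. The ratio of Nrp1 to Nrp2 was 54.8, 32.7 and 37.6 in the 3 libraries. Nrp1 ranked first of the 68 members with and without division by length, and held 16.3% ± 2.91 of their summed level (SD, n = 3). The level depends on the length used: with the longest transcript (3.65 kilobases) in place of all exons (9.79 kilobases) its mean was 152 CPM per kilobase in place of 56.5.

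The ephrin-A ligands were led by Efna1, and that lead was uneven. Efna1 (ENSMUSG00000027954, chromosome 3, 89271733 to 89281142), a ligand of Epha2, was at 80.5, 27.4 and 26.7 CPM per kilobase in libraries 1, 2 and 3 (44.9 ± 30.8, SD, n = 3). Efna5, which binds Epha3 and Epha4, was at 6.17, 12.2 and 10.6, and Efna2 at 4.84, 3.04 and 2.79. Efna1 was above both in every library, but without library 1 its mean was 27.1, which moved it from rank 2 to rank 3 of the 68 members, behind Ephb6. Efna4 was at 2.35 ± 0.450 and Efna3 at 0.796 ± 0.803 CPM per kilobase. Exons of Efna3 and Efna4 overlap annotated antisense genes over 14.1% and 10.5% of their length, and the strand setting of the counting is not given in the sources used here, so reads of each pair cannot be told apart.

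All 3 ephrin-B ligands were detected, in an order that held in each library. Efnb1 (ENSMUSG00000031217, chromosome X, 99136130 to 99148991) was at 25.1, 19.0 and 14.2 CPM per kilobase in libraries 1, 2 and 3. Efnb3 was at 6.68, 4.65 and 4.59, and Efnb2, known as the arterial ephrin, at 0.936, 1.48 and 0.956. The ranges of the 3 did not overlap. Efnb1 took 74.7% ± 2.52 of the ephrin-B sum (SD, n = 3).

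Of 9 EphA receptors, 5 passed the filter, and 3 of them formed the upper level. Epha3 (ENSMUSG00000052504, chromosome 16, 63543534 to 63864175) was at 12.3, 13.7 and 13.0 CPM per kilobase in libraries 1, 2 and 3, Epha7 at 11.005, 14.4 and 7.84, and Epha4 at 10.2, 8.01 and 5.72. All 3 are receptors of ephrin-A ligands, and Epha4 also binds ephrin-B ligands. The range of Epha7 overlapped those of both others, while every value of Epha3 was above every value of Epha4. Epha2, the receptor of Efna1, lay clear below them at 2.83 ± 0.441 CPM per kilobase and Epha1 at 0.447 ± 0.102 (SD, n = 3).

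Among EphB receptors the highest was Ephb6, whose kinase domain lacks catalytic activity. Ephb6 (ENSMUSG00000029869, chromosome 6, 41605482 to 41620509) was at 28.5, 26.4 and 29.1 CPM per kilobase in libraries 1, 2 and 3, with the narrowest spread of the 5 highest members (28.0 ± 1.40, SD, n = 3). Ephb4, the partner of Efnb2 in veins, was at 13.5, 10.7 and 6.64, and Ephb3 at 4.40, 2.40 and 1.79. The ranges of Ephb6, Ephb4 and Ephb3 did not overlap. Ephb2 (2.43 ± 0.980) overlapped Ephb3, and Ephb1 was low at 0.289 ± 0.186 CPM per kilobase.

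In the Slit and Robo families the ligands exceeded the receptors. Slit2 (ENSMUSG00000031558, chromosome 5, 47983138 to 48307733) measured 153 CPM in library 1, 290 in library 2 and 218 in library 3, and Slit3 (chromosome 11, 35121224 to 35708507) at 69.1, 66.6 and 35.6 CPM. Per kilobase of all exons they could not be ordered, with Slit2 at 5.999, 11.4 and 8.58 and Slit3 at 11.4, 10.98 and 5.86. With the longest transcript of each, or without library 1, Slit2 was the higher in the mean. Robo1 (chromosome 16, 72308306 to 73046095), a receptor of both, was at 1.81, 2.10 and 1.19 CPM per kilobase, Robo4, known from endothelium, at 1.30, 0.368 and 1.47, and Robo2 at 0.232, 0.330 and 0.161. The ranges of Robo1 and Robo4 overlapped, and Robo2 lay below both. Robo4 was lowest in library 2. The 7 endothelial markers summed to 72.6, 75.3 and 80.4 CPM in libraries 1, 2 and 3, with no common order. Of them 2, Kdr (10.8, 4.13 and 8.68 CPM) and Pecam1 (15.4, 10.4 and 17.5 CPM), were lowest in library 2 as Robo4 was. The others were not: Cdh5 was lowest in library 3 (32.6, 33.8 and 20.4 CPM), and Cldn5, Flt1, Tek and Emcn in library 1. The part of endothelial cells in the level of Robo4 was not tested. The Slit sum was 5.21, 8.01 and 5.15 times the Robo sum in the 3 libraries.

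The summed level of the netrins was above that of Dcc and the Unc5 receptors, though not above that of Neo1, a further netrin receptor described with the other pathway genes. Ntn4 (ENSMUSG00000020019, chromosome 10, 93640681 to 93747207), a netrin of basement membranes that binds laminin, was at 5.55, 5.57 and 7.40 CPM per kilobase in libraries 1, 2 and 3. Ntn1, the founding vertebrate netrin, was at 3.53, 6.39 and 6.32, and Ntn5 at 2.60, 2.47 and 2.82. The ranges of Ntn4 and Ntn1 overlapped, and without division by length Ntn1 was the higher in the mean. Exons of Ntn5 overlap those of Sec1 on the opposite strand over 23.4% of their length, so its reads are uncertain. The repulsive receptor Unc5c was at 0.684, 1.17 and 0.691 CPM per kilobase, the attractive receptor Dcc at 0.852, 0.908 and 0.629, and Unc5b, known from endothelium, at 0.945, 0.424 and 0.783. Those 3 overlapped each other, and without library 2 Unc5b came first in the mean. Unc5a was at 0.294 ± 0.176, overlapping Unc5b, and Unc5d had at most 9 counts in a library. The netrin sum was 3.93, 5.47 and 6.89 times the sum of Dcc and the Unc5 receptors in the 3 libraries.

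Summed by family, the highest levels were those of ephrin-A (61.3 ± 30.1 CPM per kilobase), neuropilins (57.9 ± 5.83), plexins (48.3 ± 5.93) and EphB (43.9 ± 5.81, SD, n = 3). EphA followed at 35.5 ± 5.08, class 3 semaphorins at 26.4 ± 9.65 and ephrin-B at 25.9 ± 6.53. Slits (18.1 ± 3.98), netrins (14.2 ± 2.44) and the semaphorins of classes 4 to 7 (13.9 ± 1.41) lay lower, and Robo (2.98 ± 0.304) and netrin receptors (2.67 ± 0.290) lowest. The ephrin-A sum was 96.0 in library 1 against 45.1 and 42.7 in libraries 2 and 3, and Efna1 alone held 83.8%, 60.8% and 62.6% of it. With the longest transcript in place of all exons the neuropilin sum was 154, the Slit sum 33.1 and the Robo sum 5.30, each over 1.5 times as high.

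**Figure D2:**
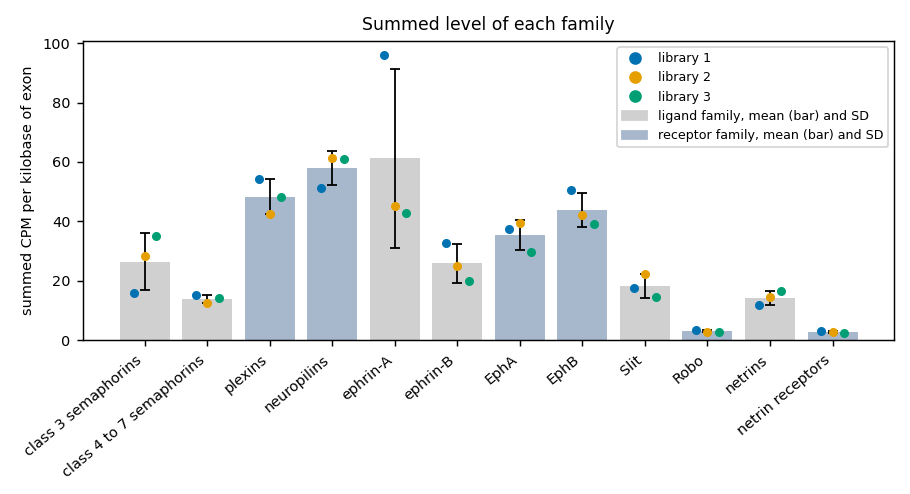
Summed CPM per kilobase of exon for each of the 12 families; bars are means over 3 libraries, error bars SDs and points single libraries. Neuropilins, plexins and EphB receptors lie between 39.2 and 61.4 in every library, whereas Robo and netrin receptors stay at 3.33 or below.

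Receptors as a whole were somewhat above ligands. The receptor sum was 199.5, 191 and 183 CPM per kilobase in libraries 1, 2 and 3, and the ligand sum 189, 148 and 143. The receptors were higher in 3 of 3 libraries, by a mean of 31.5 ± 18.1 (ligands minus receptors -31.5; two-sided exact sign-flip permutation test, p = 0.25, the smallest value that 3 libraries can give). Leaving out the highest receptor, Nrp1, turned the order of the means. The receptor sum was then 135 ± 13.1, below the ligand mean of 160 ± 25.4 CPM per kilobase (SD, n = 3). The highest ligand, Efna1, was kept in that ligand sum, at 80.5, 27.4 and 26.7 CPM per kilobase in libraries 1, 2 and 3. The removal was thus made on 1 side only, so the turn does not show that the direction rested on Nrp1. Sums without both genes were not worked out. With the longest transcript in place of all exons the difference was larger, at -117. Between these lengths the mean of Nrp1 alone went from 56.5 to 152 CPM per kilobase. The difference without Nrp1 was not worked out at the longest transcript, so the larger value is no independent check of the order.

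Known partners were then set side by side in 24 pairs of a ligand and a receptor. In 10 pairs both genes reached at least 1 CPM per kilobase in every library, among them Sema3c with Nrp1, Sema4c with Plxnb2, Efnb1 with Ephb2 and Ephb3, Efna1 with Epha2, Efna5 with Epha3 and Epha4, and Slit2 and Slit3 with Robo1. The receptor was higher in 3 of 3 libraries in 11 pairs and the ligand in 12. Among these 24, the receptor was the higher partner in each of the 7 pairs of a semaphorin with a plexin and in both pairs of Nrp1. The ligand was higher in each Slit, netrin and Nrp2 pair. The pattern depends on which pairs were listed. Ephb6 and Neo1 were in none, and Sema3b was paired with Nrp2 only. Neo1, at 25.7, 27.7 and 16.9 CPM per kilobase in libraries 1, 2 and 3, was above Ntn1 (3.53, 6.39 and 6.32) in each. The ephrin pairs were divided: of 3 ephrin-A pairs the receptor was higher in 1, the ligand in 1 and 1 differed between libraries, and of 3 ephrin-B pairs the receptor was higher in 1 and the ligand in 2. Plxnb2 was 3.51, 3.44 and 4.71 times as high as Sema4c in libraries 1, 2 and 3, and Ephb4 14.4, 7.20 and 6.94 times as high as Efnb2. By contrast Epha2 was at 0.0411, 0.0888 and 0.103 of the level of Efna1, and Robo2 at 0.0387, 0.0289 and 0.0188 of that of Slit2. A pair of genes in 1 bulk sample need not be made by the same cells. With the longest transcript length the order of Sema6d and Plxna1 turned, to the ligand being higher in 3 of 3 libraries, and that of Sema3c and Nrp2 differed between libraries.

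**Figure D3:**
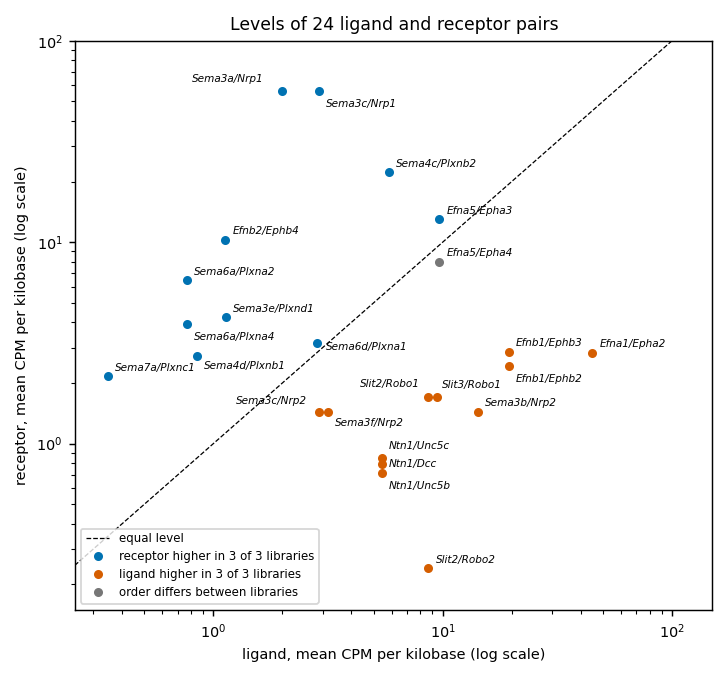
Mean CPM per kilobase of the receptor against that of the ligand for 24 pairs (both axes on a log scale), coloured by which partner was higher in every library; the dashed line marks equal levels. Pairs of plexins and of Nrp1 lie above the line, and Slit, netrin and Nrp2 pairs below it.

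Promoters are shown for the member with the highest level (Nrp1), the ligand with the most counts (Slit2), and the adjacent genes Robo4, which was detected, and Robo3, which was not. Sequences are from RefSeq on GRCm38.p6 and run 5′ to 3′ on the gene's strand, from 250 bases before to 50 bases after the annotated start; capitals mark CG dinucleotides. The windows are chr8:128358823-128359122 (plus strand) for Nrp1, chr5:47982905-47983204 (plus) for Slit2, chr9:37401722-37402021 (plus) for Robo4 and chr9:37433126-37433425 (minus) for Robo3.
Nrp1: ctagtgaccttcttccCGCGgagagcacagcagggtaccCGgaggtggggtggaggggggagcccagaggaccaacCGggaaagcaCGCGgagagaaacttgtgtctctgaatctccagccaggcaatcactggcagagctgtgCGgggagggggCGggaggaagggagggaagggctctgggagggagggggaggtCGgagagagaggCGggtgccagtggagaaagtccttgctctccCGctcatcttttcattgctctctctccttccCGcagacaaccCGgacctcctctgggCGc
Slit2: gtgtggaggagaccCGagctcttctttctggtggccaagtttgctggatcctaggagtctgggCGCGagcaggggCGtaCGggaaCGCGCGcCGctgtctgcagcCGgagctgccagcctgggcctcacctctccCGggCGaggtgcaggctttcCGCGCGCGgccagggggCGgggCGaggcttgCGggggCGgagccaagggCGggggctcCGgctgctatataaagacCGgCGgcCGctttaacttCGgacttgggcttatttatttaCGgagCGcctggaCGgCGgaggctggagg
Robo4: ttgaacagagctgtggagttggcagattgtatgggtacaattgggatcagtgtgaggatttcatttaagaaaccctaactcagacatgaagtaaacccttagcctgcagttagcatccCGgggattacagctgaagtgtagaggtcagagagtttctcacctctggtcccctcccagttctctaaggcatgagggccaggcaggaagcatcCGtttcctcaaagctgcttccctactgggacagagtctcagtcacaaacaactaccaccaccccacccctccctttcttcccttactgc
Robo3: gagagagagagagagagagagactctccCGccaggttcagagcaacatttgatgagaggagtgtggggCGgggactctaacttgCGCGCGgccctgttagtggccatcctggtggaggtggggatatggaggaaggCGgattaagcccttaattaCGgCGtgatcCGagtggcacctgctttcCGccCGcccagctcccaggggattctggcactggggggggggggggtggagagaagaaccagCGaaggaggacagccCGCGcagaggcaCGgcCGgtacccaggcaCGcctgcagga
The windows hold 14 CG dinucleotides for Nrp1, 30 for Slit2, 2 for Robo4 and 17 for Robo3. Of the 68 members, 46 had 1 promoter in the RefSeq table, 12 had several and 10 were not matched. The 46 held a median of 23 CG, against 13 in 21262 promoters of protein-coding genes and 7 in all 32851. The GC box letters GGGCGG stood on either strand in 69.6% of the 46, 46.2% of protein-coding promoters and 35.7% of all, and the TATA box letters TATAAA in 4.35%, 12.6% and 13.6%. These backgrounds kept every promoter of genes with several, whereas the 12 members with several were left out, so the sets were chosen differently. The 6 members among them that did not pass the count filter had a median of 24 CG, beside 23 for the 40 that did. Across the 46 members, which share the same libraries, the Spearman coefficient between the CG number and the level per kilobase was 0.058.

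Other genes of these pathways were measured from a list of 45 receptors, adaptors and effectors, of which 38 passed the filter. Neo1, the paralogue of Dcc that binds netrins and repulsive guidance molecules, was at 23.5 ± 5.74 CPM per kilobase (SD, n = 3). That is 30.2, 30.5 and 26.9 times the level of Dcc in libraries 1, 2 and 3. Its levels of 25.7, 27.7 and 16.9 were above the netrin sums of 11.7, 14.4 and 16.5 CPM per kilobase. Rgma, a ligand of Neo1, was at 3.67 ± 0.197. Flrt2 and Flrt1, membrane proteins of a family that binds Unc5 receptors, were at 17.1 ± 4.21 and 6.52 ± 2.59, so Flrt2 exceeded each of the 4 Unc5 receptors. Adam10, a protease that cleaves ephrins, was at 12.6 ± 6.93 and the neuropilin-like Dcbld2 at 2.37 ± 0.565. The highest effectors were Rras, a small GTPase regulated by plexins, at 29.2 ± 7.72, and Dpysl3, of the collapsin response mediator family, at 21.1 ± 2.30 CPM per kilobase.

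No member was called variable between the libraries. The goodness-of-fit test of edgeR, which asks whether a gene differs between replicates by more than genes of like abundance, called 0 of 60 members at an adjusted p-value of 0.05, against 0.437% of the 14409 genes. At an unadjusted p under 0.05 it marked 6 members (10.0%), against 7.04% of all genes. With the dispersion trend of DESeq2 it also called 0, with 6 at an unadjusted p under 0.05. Of the 38 other pathway genes 0 were called by edgeR, and 4, Adam10, Chl1, L1cam and Nck1, had an unadjusted p under 0.05.

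Most of the widest ranges belonged to class 3 semaphorins and ephrins. Sema3d measured 3.69 CPM in library 1, 23.3 in library 2 and 31.3 in library 3, which spans 2.78 on the log2(CPM + 1) scale (edgeR adjusted p = 0.089). Sema3e was at 4.04, 5.91 and 21.6 CPM (range 2.16, edgeR adjusted p = 0.326) and Sema3c at 7.225, 35.8 and 18.6 CPM (range 2.16, edgeR adjusted p = 0.379). Library 1 held the lowest value in each. Efna3 was at 4.14, 1.24 and 0.424 CPM (range 1.85), Sema3g at 1.36, 1.58 and 6.59 CPM (range 1.68), and Efna1 at 147, 50.2 and 48.9 CPM (range 1.57). Both ephrins were highest in library 1, and Sema3g in library 3. Nrp1, Epha3 and Ephb6 had ranges of 0.25, 0.15 and 0.14, which widened to 0.72, 0.77 and 0.31 with the trends on GC content and length removed.

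**Figure D4:**
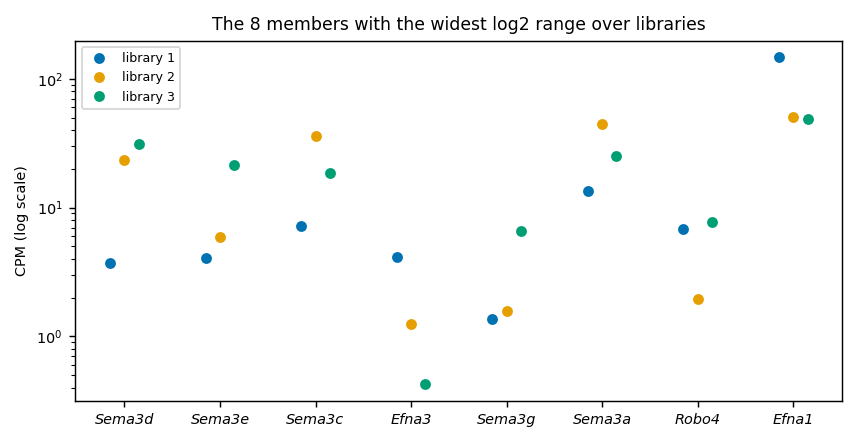
CPM (log scale) in each library of the 8 members with the widest log2 range, ordered by range; each point is 1 library. Library 1 is lowest for Sema3d, Sema3e, Sema3c, Sema3g and Sema3a and highest for Efna3 and Efna1.

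Families differed in where library 1 stood. Of 7 class 3 semaphorins 6 were lowest in library 1, Sema3f excepted, with a median difference of library 1 from the mean of libraries 2 and 3 of -1.26 on the log2 scale. Of 5 EphB receptors 4 were highest there (median 0.84), and of 5 ephrin-A ligands 4 (median 0.65). Over all 60 members 24 were highest in library 1. The share of all genes tested that were highest there was not worked out, so this count and those of the families have no background. Lowest in library 1 were 21 members (35.0%), against 40.4% of all genes tested. The median difference of the 60 members was 0.03, beside -0.0048 over all genes tested. These differences moved with base composition: across the 60 members the difference correlated with the GC content of the transcript at a Spearman coefficient of 0.486 (Pearson 0.529), as it did at 0.608 across 14375 genes, which share the same libraries. Sema3d, Sema3a, Sema3e and Sema3c have GC contents of 39.2%, 40.8%, 42.0% and 42.7%, against a median of 55.7% for the 60 members. Sema3b and Sema3g were also lowest in library 1, with GC contents of 56.5% and 56.2%. The trends on GC content and on the length of all exons were then taken out. After that the median difference of the class 3 semaphorins was -1.04, with 6 of 7 still below 0. That of EphB receptors was 0.68 and that of ephrin-A ligands 0.27. The same step moved the median of the EphA receptors from 0.05 to 0.71 and that of the Robo receptors from 0.18 to 0.43. Macrophage and choroid plexus markers were also lowest in library 1, as given above. So was the sum of the 5 lymphocyte markers, at 2.68, 53.7 and 62.1 CPM (2 passed the filter and both were called). The mitochondrial share of gene counts was lowest there too, at 0.918%, 3.60% and 3.46%. The part of these in the differences was not tested. Erythroid markers (3 genes) were highest in library 1, as Efna1 and Efna3 were, with a sum of 747 CPM in library 1 against 185 and 312 CPM, and their part was not tested either.

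**Figure D5:**
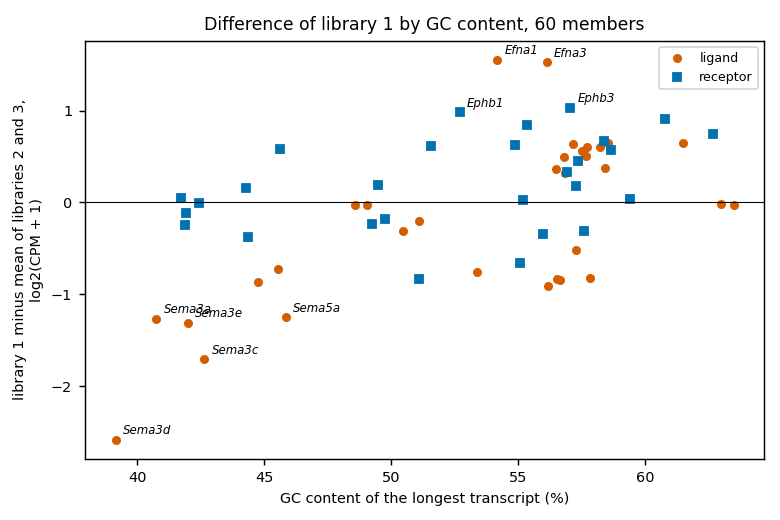
Difference of library 1 from the mean of libraries 2 and 3, in log2(CPM + 1), against the GC content of the longest transcript for the 60 members that passed the filter; circles are ligands and squares receptors. The class 3 semaphorins of low GC content lie lowest (Sema3d at -2.58), and Efna1 (1.55) and Efna3 (1.53) highest.

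Library 3 was highest for another set. Plxnb1 was at 21.0, 17.2 and 39.8 CPM and Plxnb3 at 11.4, 8.70 and 24.6 CPM in libraries 1, 2 and 3, and Sema3b at 43.3, 61.1 and 99.6 CPM. Their ranges of 1.17, 1.40 and 1.18 on the log2 scale did not pass the test (edgeR adjusted p = 1, 0.947 and 1). The 5 Schwann cell markers summed to 1058, 893 and 1816 CPM and the 6 mural cell markers to 2765, 2427 and 4673 CPM, both highest in library 3, and their part was not tested.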

How the data were processed

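RNA from the 3 sorted samples was amplified and sequenced as paired reads of 50 bases, per the labels' protocols. The authors deposited a table of raw counts per gene, with no normalization. The submitters' processing notes name HTSeq 0.5.3, DESeq2 1.22.1 and the build mm10 with no role; the aligner, annotation and strand setting are not given in the sources used here. Rows that name no gene held 45.6%, 39.1% and 39.6% of reads in libraries 1, 2 and 3 and were left out. TMM scaling and the low-count filter filterByExpr (minimum count 10) were applied with edgeR 4.0.16 in R 4.3.3. Lengths, positions and GC content came from GENCODE M21 on GRCm38, matched for 98.9% of gene rows. Variation was tested with edgeR's goodness of fit at the trended dispersion, with Benjamini-Hochberg adjustment over 14409 genes; it was tested on simulated data. With 1 group there is no contrast for the quasi-likelihood test. Alternatives used DESeq2 1.42.0, other filters, lengths and dispersions, and each library left out. The members and lists were chosen with earlier results of these data known. Every member could be named, with values per library for the 3 highest of each family and the 5 widest ranges, and 2 genes of each other pathway list. The values of Plxnb1 and Plxnb3, the counts of Epha5 and Epha10, and the names Chl1, L1cam, Nck1 and Sema3a among the wide or low-GC genes were added after their values were seen. Other cell type lists not described are given under other observations. Reads amplified by PCR are not independent molecules, so floors cover counting error only.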

Additional observations from a re-analysis of the deposited data

How the results depend on the processing

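No paired analysis was possible because all libraries belong to a single group. The count of members called variable was 0 under each of the 10 alternatives tried, with the lowest adjusted p of edgeR's goodness of fit between 0.0605 and 0.530; the count of members at an unadjusted p under 0.05 went from 4 to 11. Over all genes the 63 calls became 98 with GC content and length trends removed and 136 with no filter on low counts, which tests more genes, and ranged from 13 to 29 when each replicate was left out, with fewer samples; the cause of the former was not tested. The median log2(CPM + 1) of the members, 3.90, ranged from 3.63 to 3.97 when each replicate was left out. With the longest transcript in place of all exons, whose shorter lengths raise a level per kilobase, the family sums were 38.3 for class 3 semaphorins, 19.5 for classes 4 to 7, 57.6 for plexins, 154 for neuropilins, 50.5 for EphA, 33.1 for Slits, 5.30 for Robo and 3.78 for netrin receptors. The leading member of all 12 families was the same with plain totals, with trends removed and without library 3. Depth limits the members with few counts: 3 counts are 0.152 CPM in library 1.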

Other observations

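Several members that lie side by side in the genome differed in level, and others did not. Robo4 and Robo3 are 0.553 kilobases apart on chromosome 9; Robo4 was at 1.04 ± 0.592 CPM per kilobase (SD, n = 3), and Robo3 had no count. Efna1, Efna3 and Efna4 lie in this order on chromosome 3, with gaps of 32.8 and 10.4 kilobases, at 44.9 ± 30.8, 0.796 ± 0.803 and 2.35 ± 0.450. Ephb2 and Epha8 are 93.4 kilobases apart on chromosome 4, at 2.43 ± 0.980 and 0.0332 ± 0.0383. Sema3b and Sema3f, 72.3 kilobases apart on chromosome 9, were at 14.2 ± 6.02 and 3.15 ± 0.797. By contrast Sema3d, Sema3a and Sema3e, in this order on chromosome 5 with gaps of 536 and 423 kilobases, had overlapping ranges, at 2.26 ± 1.65, 2.00 ± 1.12 and 1.13 ± 1.04.

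Marker lists of further cell types, summed over their genes in libraries 1, 2 and 3, were 64.8, 59.1 and 99.6 CPM for oligodendrocytes, 16.7, 21.5 and 38.1 CPM for astrocytes and 72.2, 87.4 and 83.2 CPM for neurons. The oligodendrocyte sum came mostly from Mobp (45.2, 40.7 and 57.5 CPM) and Mag (19.2, 18.3 and 41.0 CPM). Mog (6, 0 and 17 counts) and Opalin (2, 4 and 10 counts) did not pass the filter. Arachnoid barrier markers summed to 92.5, 78.8 and 82.9 CPM.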
